A study of Homo sapiens with 6 samples.

Results

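The collagen genes of HEK293 cells were followed through the loss of FAM60A. A gene was taken as a member when it was protein-coding and its symbol consisted of COL, a number, A and a number. This rule found 44 genes among the 62754 genes of the count table, and 42 of them passed the filter on low counts that left 20992 genes for testing. FAM60A (SINHCAF) belongs to the Sin3/HDAC complex, which removes acetyl groups from histones. HEK293 cells come from embryonic kidney of human origin. Titles give HEK293, but the cell line field gives HEK293T, which in addition makes SV40 large T antigen. Poly(A) RNA was sequenced from 3 control libraries and 3 FAM60A-knockout libraries, all grown in DMEM with fetal bovine serum and Glutamax. The knockout was a pool of cells that had received a CRISPR/Cas9 construct with several guide RNAs and had been selected with puromycin, so it could hold different edits of the gene. What the control cells had received was not stated, nor was it stated whether replicates came from separate cultures, so the p-values may measure only technical spread.

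Total counts lay between 88361827 and 93346824 per library, and all counts below are as deposited. FAM60A transcripts were counted 11028, 10165 and 12792 times in control replicates 1, 2 and 3 and 5684, 5793 and 5449 times in the knockouts. In CPM scaled by TMM, edgeR's normalization for library size and composition, the knockout mean was 0.555 of the control mean (log2 fold change -0.85 ± 0.11 (SE), adjusted p = 0.00863, edgeR quasi-likelihood test). Control replicate 3 stood apart from the other controls. With it, 3491 of all genes were called at an adjusted p of at most 0.05, and without it 14221 were. It is therefore given separately throughout, and "the other controls" are control replicates 1 and 2.

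Collagens are secreted or membrane-bound proteins in which alpha chains wind around each other into a helix. Fibrillar collagens build the cables of connective tissue, type IV collagens form the sheet of basement membranes, and smaller classes coat fibrils, anchor epithelia or span the cell membrane. Embryonic kidney lays down type IV collagen around its tubules and glomeruli, and mutations of the COL4A3, COL4A4 and COL4A5 chains cause Alport syndrome. Chains that share a helix, such as COL4A1 with COL4A2 or COL5A1 with COL5A2, are called partner chains here.

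Loss of FAM60A coincided with changes in both directions among the collagens. Of the 42 tested genes, 5 were called higher in the knockout (COL5A2, COL4A1, COL4A4, COL6A5 and COL19A1) and 6 lower (COL1A1, COL5A1, COL5A3, COL6A2, COL12A1 and COL20A1). Over all tested genes, 7.96% were called higher and 8.67% lower. At the additional threshold of a log2 fold change of at least 1 in size, 3 collagens remained higher and 5 lower, where 3.34% and 3.72% of all tested genes did so. In 9 collagens every knockout library lay above every control and in 10 every one lay below, against a background of 21.5% and 20.1% of all tested genes. The median log2 fold change of the tested collagens was 0.04, and that of all tested genes was -0.00808. As these are bulk cultures, fewer cells that express a collagen and less RNA per cell cannot be told apart.

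The number of calls depended on single libraries. Without control replicate 3, 22 collagens were called higher and 14 lower, among them all 11 of the calls above. In that fit 32.4% of all tested genes were called higher and 33.2% lower. Of the collagens, 16 were higher and 9 lower by a log2 fold change of at least 1, where 13.1% and 9.75% of all genes tested in that fit were. The median log2 fold change of the collagens was then 0.58, and that of all genes tested in that fit was -0.00237. Leaving out control replicate 1 or 2 kept 3 calls each time (COL19A1, COL5A1 and COL6A2). Leaving out knockout replicate 2 kept COL19A1 and COL20A1. Leaving out knockout replicate 1 or 3 kept 0 calls by edgeR, with 13 collagens at an unadjusted p under 0.05 in each case. Calls over all genes fell as well. They were 1049 of 21470 and 796 of 21462 tested genes without control replicate 1 and 2. Without knockout replicates 1, 2 and 3 they were 167 of 21873, 503 of 21820 and 189 of 21736. None of the 11 genes was called in all 12 alternatives. With all 6 libraries DESeq2 called 13 collagens and limma-voom 9, where they called 5581 and 3521 of all 20992 tested genes.

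**Figure D1:**
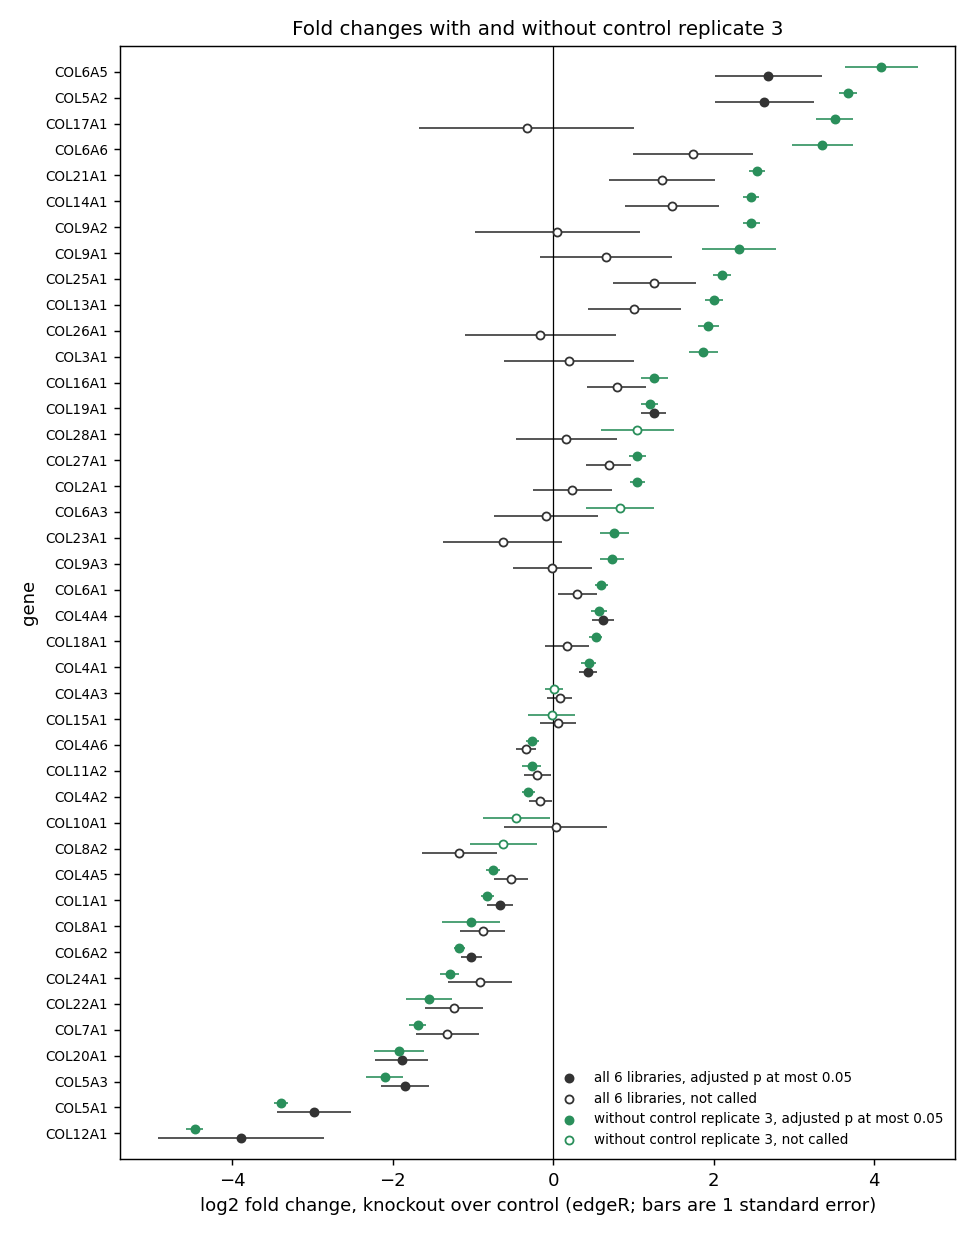
The log2 fold change of knockout over control (horizontal axis) is plotted for the 42 tested collagens (vertical axis, ordered by the fit without control replicate 3), with bars of 1 standard error. Black points come from all 6 libraries and green points from the fit without control replicate 3, and filled points had an adjusted p of at most 0.05: 11 black and 36 green points are filled, and the green points range from -4.47 for COL12A1 to 4.09 for COL6A5.

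Among the fibrillar collagens, the type V chains gave the clearest contrast. COL5A1, the main chain of the type V collagen that sets the diameter of fibrils, had 4249 and 4038 counts in the other controls, 1290 in control replicate 3, and 397, 328 and 360 in the knockouts. All knockouts lay below all controls, and control replicate 3 lay in between. The gene fell in the knockout (log2 fold change -2.98 ± 0.46 (SE), adjusted p = 0.0124, edgeR), and it kept its call when any 1 control was left out but not when any 1 knockout was, where the adjusted p reached 0.0846. COL5A2, its partner chain, moved the opposite way, with 279 and 278 counts in the other controls, 1195 in control replicate 3, and 3393, 2877 and 3462 in the knockouts. Again the groups did not overlap and control replicate 3 lay in between. COL5A2 rose in the knockout (log2 fold change 2.63 ± 0.62, adjusted p = 0.0361, edgeR), and of the fits that left out 1 library it was called only without control replicate 3. Over the alternatives its adjusted p reached 0.137.

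COL5A3, a type V chain of restricted expression, fell from a low level. It had 94 and 97 counts in the other controls, 55 in control replicate 3, and 23, 18 and 20 in the knockouts (log2 fold change -1.85 ± 0.30, adjusted p = 0.0143, at most 0.0888 over the alternatives). Of its exonic bases, 3.98% are shared with a gene on the opposite strand, and whether counting used strand was not stated. COL1A1, a chain of the type I collagen of bone and skin, was counted 2446 and 2526 times in the other controls, 1854 times in control replicate 3, and 1145, 1401 and 1324 times in the knockouts. It fell without overlap between the groups (log2 fold change -0.66 ± 0.16, adjusted p = 0.0361, at most 0.163 over the alternatives). COL1A2, which joins COL1A1 in type I collagen, was all but absent, with 1, 0 and 0 counts in the control libraries and 0, 2 and 2 in the knockouts. COL11A1, a cartilage chain, was likewise not tested, with 2, 1 and 0 counts in the control libraries and 4, 2 and 6 in the knockouts. By counting error alone, a library with a count of 0 can have an expected count of up to about 3, so 3 counts were taken as a floor. The knockout counts of 4 and 6 for COL11A1 lie above it.

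In other fibrillar collagens control replicate 3 decided the outcome. COL2A1, the main cartilage collagen, had 5735 and 5587 counts in the other controls, 19038 in control replicate 3, and 10039, 9980 and 12147 in the knockouts. Its highest library was thus a control, and it was not called (log2 fold change 0.24 ± 0.49, adjusted p = 0.763). Without control replicate 3 it was called higher, at 1.05 ± 0.09. COL3A1, of the type III collagen of vessels and skin, had the same order, with 45 and 49 counts in the other controls, 368 in control replicate 3, and 156, 155 and 164 in the knockouts (0.20 ± 0.81 with all libraries, 1.87 ± 0.18 without control replicate 3). COL27A1, a fibrillar collagen of developing cartilage, had 1040 and 971 counts in the other controls, 1929 in control replicate 3, and 1964, 1696 and 2061 in the knockouts. Here control replicate 3 fell among the knockouts (adjusted p = 0.139), and without it the log2 fold change was 1.05 ± 0.10. COL24A1, a fibrillar collagen of developing bone, was lower in the knockouts than in the other controls. It had 485 and 453 counts in the other controls, 170 in control replicate 3, and 183, 158 and 188 in the knockouts (adjusted p = 0.161, and -1.29 ± 0.12 without control replicate 3). In scaled level control replicate 3 lay just below every knockout, at 1.76 CPM against 2.17, 1.80 and 2.13. COL11A2 stayed between 366 and 577 counts in all libraries and was not called (adjusted p = 0.452).

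Type IV chains made up the largest class by summed level, and their changes were small. COL4A1 and COL4A2 form the network present in nearly every basement membrane. COL4A1 had 14067 and 12241 counts in the other controls, 14264 in control replicate 3, and 16409, 14670 and 17999 in the knockouts. Scaled to library size, all knockouts lay above all controls, and the gene rose by a log2 fold change of 0.43 ± 0.11 (adjusted p = 0.0487, at most 0.184 over the alternatives). COL4A2 had 26742 and 24852 counts in the other controls, 19616 in control replicate 3, and 18647, 17823 and 20936 in the knockouts. It was not called (-0.16 ± 0.14, adjusted p = 0.466), and without control replicate 3 it was called lower at -0.31 ± 0.08.

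The COL4A3, COL4A4 and COL4A5 chains form the network of the mature glomerular basement membrane. COL4A4 had 1870 and 1545 counts in the other controls, 1636 in control replicate 3, and 2422, 2006 and 2530 in the knockouts. Control replicate 3 lay with the other controls, and COL4A4 rose (log2 fold change 0.62 ± 0.14, adjusted p = 0.0324, at most 0.151 over the alternatives). COL4A3 had 844, 711 and 711 counts in the control libraries and 720, 649 and 784 in the knockouts, with a log2 fold change of 0.08 ± 0.16 (adjusted p = 0.742). The groups overlapped for this chain, and it was called in 0 of the 12 alternatives. Of its exonic bases, 6.82% are shared with MFF-DT on the opposite strand, which also bears on its ratio to COL4A4. COL4A5 had 7785 and 6678 counts in the other controls, 4570 in control replicate 3, and 4094, 3490 and 4269 in the knockouts (-0.53 ± 0.21, adjusted p = 0.126), and it was called lower without control replicate 3 at -0.75 ± 0.09. COL4A6, which joins COL4A5 in the basement membrane of smooth muscle, had between 4246 and 5674 counts in the control libraries and between 3215 and 3749 in the knockouts. All knockouts lay below all controls in scaled level, and the change was not called (-0.34 ± 0.13, adjusted p = 0.127). Without control replicate 3 it was called lower at -0.26 ± 0.08.

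The 6 type IV genes lie as 3 pairs, each with the starts of both genes next to each other and pointing apart. The bases between those starts are shown because each gap lies before both chains of a pair. In COL4A1 with COL4A2 and in COL4A4 with COL4A3 the ratio of the chains did not overlap between the groups. Whether this is unusual among gene pairs was not tested. The printed bases are RefSeq reference sequence of GRCh38.p14, written along the plus strand, with CCAAT boxes (CCAAT) and GC boxes (GGGCGG) on either strand in capitals. The gap of COL4A1 and COL4A2 is 126 bases long at chr13:110307158-110307283, that of COL4A4 and COL4A3 is 135 bases at chr2:227164489-227164623, and of the 379 bases between COL4A6 and COL4A5 the 250 nearest to COL4A5 are printed, chrX:108439588-108439837.
COL4A1 and COL4A2: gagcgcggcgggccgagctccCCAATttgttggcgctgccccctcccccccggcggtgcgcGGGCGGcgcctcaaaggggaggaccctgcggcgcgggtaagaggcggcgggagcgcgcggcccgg
COL4A4 and COL4A3: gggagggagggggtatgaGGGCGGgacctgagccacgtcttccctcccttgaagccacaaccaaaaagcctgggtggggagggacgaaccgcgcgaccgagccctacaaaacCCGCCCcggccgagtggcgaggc
COL4A6 and COL4A5: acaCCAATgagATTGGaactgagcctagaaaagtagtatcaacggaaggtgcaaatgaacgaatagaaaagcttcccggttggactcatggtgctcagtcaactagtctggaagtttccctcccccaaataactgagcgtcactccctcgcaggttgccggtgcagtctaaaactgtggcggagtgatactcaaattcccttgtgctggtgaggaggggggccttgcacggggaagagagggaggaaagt
The first gap holds 1 CCAAT box and 1 GC box and is 80.2% G and C, the second holds 2 GC boxes at 68.1%, and the printed part of the third holds 2 CCAAT boxes at 51.2%. No TATAAA lies in any of them.

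Ratios of partner chains within a library hardly depend on library size, and 9 of 11 listed pairs could be compared. In the COL4A1 and COL4A2 pair, the log2 CPM of COL4A1 minus that of COL4A2 was -0.93 and -1.02 in the other controls, -0.46 in control replicate 3, and -0.18, -0.28 and -0.22 in the knockouts. COL4A1 per length of transcript was thus 0.518 and 0.485 of COL4A2 in the other controls and between 0.811 and 0.867 of it in the knockouts. For COL4A3 over COL4A4 the log2 ratio came to -1.15, -1.12 and -1.20 among control libraries and to -1.75, -1.63 and -1.69 in the knockouts. In that pair control replicate 3 sat with the other controls and the knockouts were lower by 0.53. The log2 ratio of COL4A5 over COL4A6 was 0.68 and 0.65 in the other controls, -0.31 in control replicate 3 and between 0.12 and 0.22 in the knockouts, so the groups overlapped.

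The type V pair inverted. COL5A1 minus COL5A2 in log2 CPM was 3.92 and 3.85 in the other controls, 0.11 in control replicate 3, and -3.09, -3.13 and -3.26 in the knockouts. Per length, COL5A1 exceeded COL5A2 12.3-fold and 11.7-fold in the other controls, was 0.873 of it in control replicate 3, and was at most 0.0946 of it in the knockouts. The group means differed by -5.78 on the log2 scale. In type VI collagen, COL6A1 over COL6A2 was 0.13 and 0.14 in the other controls, 1.37 in control replicate 3, and 1.94, 1.82 and 1.95 in the knockouts. For these non-overlapping pairs (COL4A1 with COL4A2, COL4A3 with COL4A4, COL5A1 with COL5A2, COL6A1 with COL6A2) the two-sided exact permutation p was 0.1, which is the smallest that 3 against 3 libraries can give, and 0.225 after adjustment over the 9 pairs. How often the ratios of other gene pairs fail to overlap was not computed. Over single tested genes, the groups did not overlap in 21.5% with the knockout higher and in 20.1% with it lower. The remaining pairs of partner chains overlapped between the groups. For COL9A2 over COL9A3 the log2 ratio was 0.33 and 0.24 in the other controls, 2.49 in control replicate 3 and between 1.90 and 2.27 in the knockouts.

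**Figure D2:**
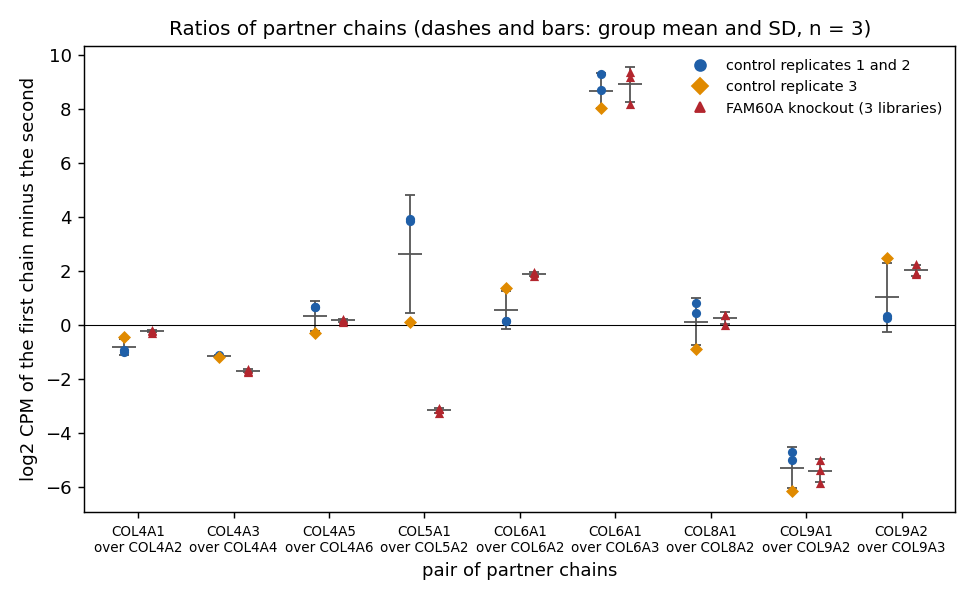
Log2 CPM of the first chain minus that of the second (vertical axis) for 9 pairs of partner chains (horizontal axis) in each library, with dashes and bars for the mean and SD of the 3 libraries of a group. Circles are control replicates 1 and 2, diamonds control replicate 3 and triangles the knockouts; COL5A1 over COL5A2 runs from 3.92 in a control to -3.26 in a knockout, with control replicate 3 at 0.11.

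Type VI collagen forms beaded filaments that link cells to the matrix, with COL6A1 and COL6A2 in every helix. COL6A2 had 6548 and 6381 counts in the other controls, 4896 in control replicate 3, and 2567, 2617 and 2734 in the knockouts. It fell to 0.495 of the control mean (log2 fold change -1.02 ± 0.13, adjusted p = 0.00855), and its adjusted p lay between 9.45e-12 and 0.0713 over the alternatives. COL6A1 had 7181 and 7035 counts in the other controls, 12666 in control replicate 3, and 9853, 9246 and 10554 in the knockouts. The groups overlapped and COL6A1 was not called (0.30 ± 0.24, adjusted p = 0.421), while without control replicate 3 it was called higher at 0.60 ± 0.08. COL6A3, the chain that completes the common type VI helix, had only 9 to 46 counts in any library (adjusted p = 0.935).

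The chains that can take the place of COL6A3 were low as well. COL6A5 had 2 and 3 counts in the other controls, 16 in control replicate 3, and 37, 48 and 38 in the knockouts (log2 fold change 2.68 ± 0.67, adjusted p = 0.0429, at most 0.151 over the alternatives). It passed the filter on low counts only through the libraries where it was high, which sets its direction in part. COL6A6, its neighbour on chromosome 3, had 5 and 4 counts in the other controls, 34 in control replicate 3, and 42, 44 and 44 in the knockouts. It was not called with all libraries (1.74 ± 0.75, adjusted p = 0.157) and was called without control replicate 3 at 3.35 ± 0.38. In the fit without control replicate 3, COL6A5 and COL6A6 passed the filter only through the knockouts, which sets their direction. COL7A1, the collagen of the anchoring fibrils beneath epithelia, had 2259 and 2225 counts in the other controls, 845 in control replicate 3, and 650, 527 and 740 in the knockouts. The groups did not overlap, but the adjusted p by edgeR was 0.064 (log2 fold change -1.32 ± 0.39). DESeq2 called it lower (adjusted p = 0.00516, against up to 0.198 over the alternatives), as did library size without TMM, and without control replicate 3 it was called at -1.69 ± 0.11.

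Fibril-associated collagens bind to the surface of fibrils. COL12A1, which links fibrils in tendon and muscle, gave the largest difference of all collagens. It had 11167 and 8890 counts in the other controls, 476 in control replicate 3, and 386, 370 and 484 in the knockouts. Control replicate 3 lay among the knockouts, so the groups overlapped. The gene was called lower with all libraries (log2 fold change -3.89 ± 1.03, adjusted p = 0.0491, edgeR) but in only 4 of 12 alternatives. Its highest adjusted p was 0.192, by limma-voom. Of the fits that left out 1 library it was called only without control replicate 3, where the log2 fold change was -4.47 ± 0.11. COL14A1, a related collagen of mature fibrils, had the opposite order, with 2299 and 2030 counts in the other controls, 8880 in control replicate 3, and 10757, 9999 and 12304 in the knockouts. All knockouts lay above all controls, yet COL14A1 was not called by edgeR (1.48 ± 0.58, adjusted p = 0.127). DESeq2 called it higher (adjusted p = 0.0302, against up to 0.282 over the alternatives), and without control replicate 3 it was called at 2.47 ± 0.10.

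The 250 bases before the starts of COL5A1 and COL12A1 are shown for the collagens with the largest falls, from the same RefSeq table of GRCh38.p14 and each 5' to 3' along its own gene. They lie at chr9:134641553-134641802 on the plus strand and chr6:75206054-75206303 on the minus strand. Capitals mark GC boxes on either strand and GGAATG, the core bound by TEAD factors.
COL5A1: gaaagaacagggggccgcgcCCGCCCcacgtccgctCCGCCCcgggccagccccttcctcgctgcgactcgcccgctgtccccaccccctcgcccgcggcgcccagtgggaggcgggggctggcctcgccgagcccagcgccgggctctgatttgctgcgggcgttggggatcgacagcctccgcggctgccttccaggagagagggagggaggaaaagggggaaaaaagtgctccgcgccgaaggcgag
COL12A1: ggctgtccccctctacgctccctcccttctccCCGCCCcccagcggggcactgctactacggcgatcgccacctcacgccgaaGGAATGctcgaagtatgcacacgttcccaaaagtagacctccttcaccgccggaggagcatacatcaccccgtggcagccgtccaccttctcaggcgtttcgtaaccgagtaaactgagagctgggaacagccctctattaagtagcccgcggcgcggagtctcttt
COL5A1 holds 2 GC boxes and COL12A1 holds 1 GC box and 1 GGAATG, and neither holds CCAAT or TATAAA. The marked motifs do not overlap.

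In COL19A1 and COL20A1 all 3 controls were alike. COL19A1, a collagen of basement membrane zones and synapses, had 528, 498 and 498 counts in the control libraries and 1113, 953 and 1186 in the knockouts. It rose 2.38-fold over the control mean (log2 fold change 1.25 ± 0.15, adjusted p = 0.00709) and kept its call in 9 of 12 alternatives, with an adjusted p of 0.068 without knockout replicate 1. COL20A1, which passed the filter through the controls, had 62, 46 and 54 counts in the control libraries and 11, 19 and 9 in the knockouts (-1.89 ± 0.33, adjusted p = 0.017, at most 0.108 over the alternatives). In both genes the groups did not overlap and control replicate 3 lay with the other controls.

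Other fibril-associated collagens rested on control replicate 3. COL21A1 had 515 and 451 counts in the other controls, 2427 in control replicate 3, and 2713, 2331 and 2695 in the knockouts (1.35 ± 0.66, adjusted p = 0.199). COL16A1 had 69 and 82 counts in the other controls, 169 in control replicate 3, and 172, 145 and 180 in the knockouts (0.79 ± 0.37, adjusted p = 0.18). COL22A1, a collagen of tissue junctions, had 49 and 41 counts in the other controls, 21 in control replicate 3, and 14 in each knockout (-1.24 ± 0.36, adjusted p = 0.0641, called by library size without TMM). In these 3 genes control replicate 3 lay nearer to the knockouts than to the other controls, and each was called without it, at 2.54 ± 0.10, 1.26 ± 0.17 and -1.55 ± 0.29.

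Type IX collagen decorates the type II fibrils of cartilage. COL9A2 had 193 and 212 counts in the other controls, 2930 in control replicate 3, and 1022, 1043 and 1028 in the knockouts. COL9A1 had 4 and 6 counts in the other controls, 39 in control replicate 3, and 16, 31 and 23 in the knockouts. Control replicate 3 was the highest library for both, as it was for their fibril partner COL2A1, and neither was called with all libraries (adjusted p = 0.98 and 0.603). Without control replicate 3 the log2 fold changes were 2.47 ± 0.11 for COL9A2 and 2.32 ± 0.46 for COL9A1, both called, but COL9A1 passed the filter in that fit only through the knockouts. COL9A3 ranged from 153 to 521 counts, and its fitted change moved from -0.01 with all libraries to 0.73 without control replicate 3. For COL9A3, 3.2% of exonic bases are shared with TCFL5 on the opposite strand.

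Transmembrane collagens were higher in the knockouts than in the other controls. With all libraries 0 of 4 were called by edgeR or limma-voom (1 had an unadjusted p under 0.05 in edgeR). DESeq2 called 0 of 3 and gave no adjusted p for COL17A1. Of all tested genes, edgeR called 7.96% higher and 8.67% lower. Summed over COL13A1, COL17A1, COL23A1 and COL25A1, the CPM was 13.4 and 11.1 in the other controls, 52.3 in control replicate 3, and 54.5, 45.5 and 55.6 in the knockouts. COL25A1, which is cut into a protein found in amyloid plaques, had 968 and 750 counts in the other controls, 3000 in control replicate 3, and 3471, 2915 and 3717 in the knockouts (1.26 ± 0.52, adjusted p = 0.144). COL13A1, a collagen of cell adhesions and the neuromuscular junction, had 249 and 217 counts in the other controls, 953 in control replicate 3, and 824, 830 and 907 in the knockouts (adjusted p = 0.262). COL17A1, the hemidesmosome collagen of basal keratinocytes, had 15 and 14 counts in the other controls, 616 in control replicate 3, and 160, 144 and 155 in the knockouts (adjusted p = 0.882). For the last gene control replicate 3 exceeded the other controls 42.5-fold, and the fitted change turned from -0.33 ± 1.34 to 3.51 ± 0.23 without it. COL23A1 had between 75 and 486 counts, and its change likewise turned from -0.63 to 0.76. All 4 transmembrane collagens were called higher without control replicate 3.

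The multiplexin COL18A1, whose C-terminal end is released as endostatin, had 4155 and 4187 counts in the other controls, 8107 in control replicate 3, and 5548, 5337 and 5725 in the knockouts (0.17 ± 0.27, adjusted p = 0.693). It was highest in control replicate 3 and was called without it at 0.53 ± 0.08. As 18.5% of its exonic bases are shared with SLC19A1 on the opposite strand, its counts are uncertain. COL15A1, the other multiplexin, stayed between 21 and 29 counts (adjusted p = 0.873). COL26A1 had 132 and 133 counts in the other controls, 1475 in control replicate 3, and 437, 495 and 463 in the knockouts, and its fitted change turned from -0.16 ± 0.94 to 1.93 ± 0.13 without control replicate 3. COL28A1 ranged from 4 to 28 counts.

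Short chain collagens were near the lower limit of detection. COL8A1, of the sheet under endothelia, had 20 and 26 counts in the other controls, 18 in control replicate 3, and 9, 11 and 11 in the knockouts (-0.88 ± 0.28, adjusted p = 0.0793). COL8A2 had 14 counts in each of the other controls, 35 in control replicate 3, and 9, 8 and 8 in the knockouts (-1.17 ± 0.47, adjusted p = 0.134). The groups did not overlap for either, and both passed the filter through the controls. COL10A1, the marker of hypertrophic cartilage, ranged from 3 to 21 counts (adjusted p = 0.983). Without control replicate 3, COL8A1 was called lower at -1.02 ± 0.36, while COL8A2 and COL10A1 were not called.

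**Figure D3:**
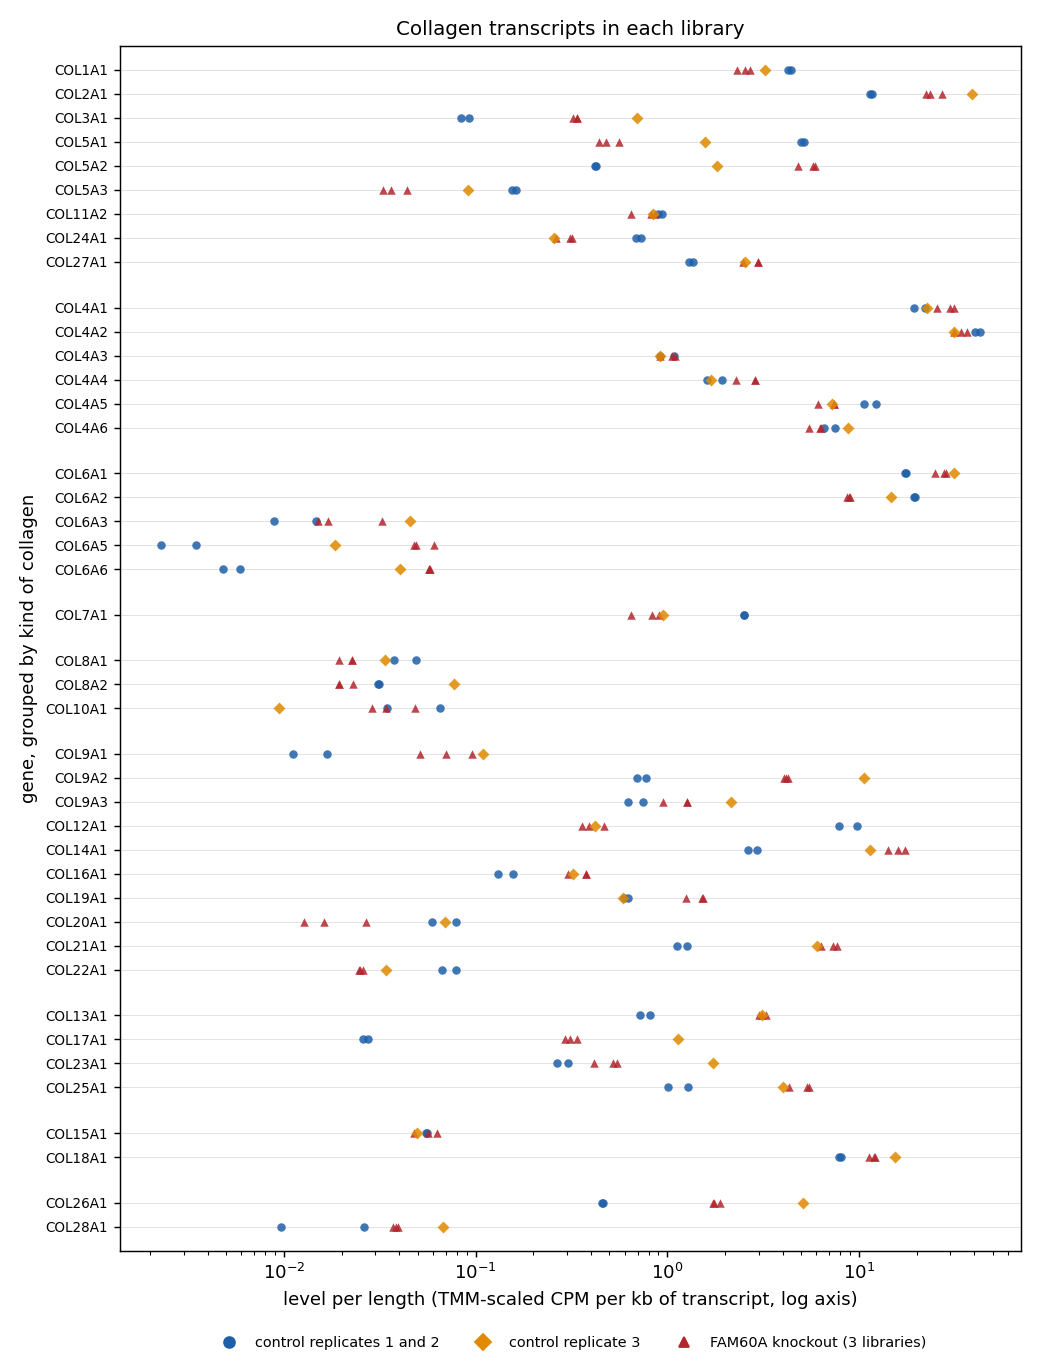
Level per length (horizontal log axis, TMM-scaled CPM per kb of transcript) of the 42 tested collagens (vertical axis, grouped by kind) in each of the 6 libraries. Circles are control replicates 1 and 2, diamonds control replicate 3 and triangles the knockouts; COL12A1 has control replicate 3 among the knockouts, while for COL19A1 and COL20A1 it lies with the other controls.

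Between genes, levels were compared as CPM per kb of transcript. COL4A2 was the highest collagen over the 6 libraries at 36.1, followed by COL4A1 at 25.1, COL6A1 at 24.6, COL2A1 at 22.5, COL6A2 at 13.3, COL18A1 at 11.1, COL14A1 at 10.8 and COL4A5 at 8.51. The order differed between the groups. In control replicate 3 COL2A1 was highest at 38.9, above COL4A2 at 31.5, while COL4A2 was highest in the other controls at 41.4 and in the knockouts at 34.2. COL14A1 stood at 2.79 CPM per kb in the other controls, 11.5 in control replicate 3 and 15.9 in the knockouts, and COL12A1 at 8.84, 0.42 and 0.406. COL6A2 stood at 19.4 in the other controls, above COL6A1 at 17.5, and at 8.83 in the knockouts, below COL6A1 at 27.1.

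The summed collagen CPM was 1109 and 1024 in the other controls, 1264 in control replicate 3, and 1233, 1099 and 1289 in the knockouts, so the groups overlapped. Type IV chains made up 52.1% and 51.1% of it in the other controls, 38.0% in control replicate 3, and 44.1%, 43.4% and 44.1% in the knockouts. COL12A1 alone held 10.4% and 9.03% in the other controls, 0.39% in control replicate 3 and at most 0.425% in the knockouts, while COL14A1 went from 2.13% and 2.06% to 7.27% and to between 10.4% and 10.8%. Transmembrane collagens made up 1.21% and 1.08% of the sum in the other controls, 4.14% in control replicate 3 and between 4.14% and 4.42% in the knockouts. These shares are descriptions without a test.

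**Figure D4:**
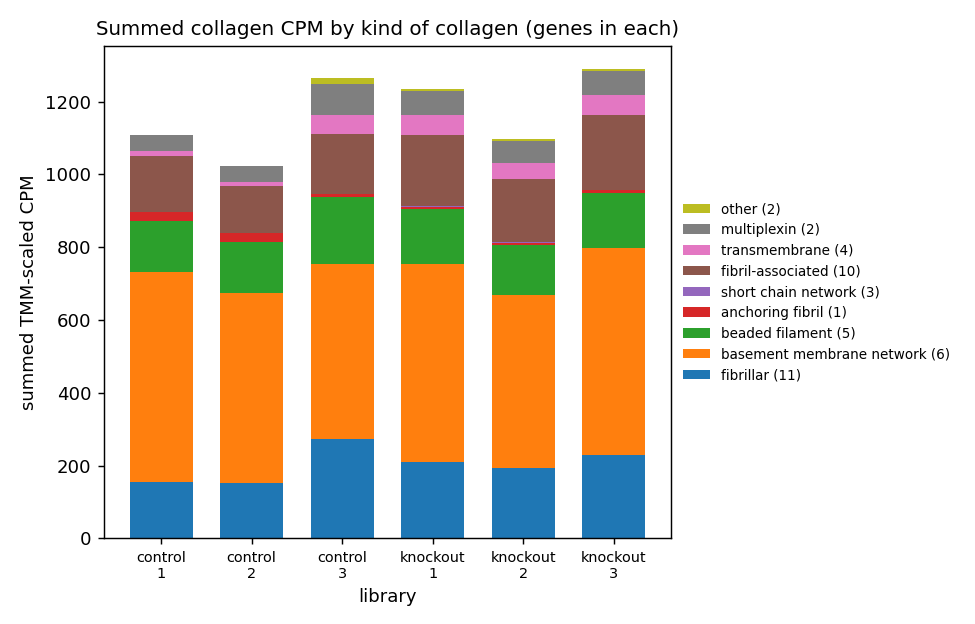
Summed TMM-scaled CPM of the 44 collagen genes (vertical axis) in each of the 6 libraries (horizontal axis), stacked by kind of collagen with the number of genes of each kind in the key. The total lies between 1024 and 1289, and the transmembrane layer is 13.4 and 11.1 CPM in control replicates 1 and 2 and at least 45.5 CPM in the other libraries.

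Control replicate 3 was placed against the other libraries gene by gene. In 25 collagens the knockouts differed at least 2-fold from the other controls. In 12 of these (48%) control replicate 3 lay between the groups and nearer to the knockouts, and in 9 (36%) it lay past the knockouts, among them COL2A1, COL3A1, COL9A2, COL17A1 and COL26A1. It lay nearer to the other controls in COL5A3 and COL6A2 and just on their far side in COL19A1 and COL20A1, at -0.03 and -0.01 of the distance from them to the knockouts. Over all tested genes with such a difference, 4414 in number, it lay between and nearer to the knockouts in 34.9% and past them in 33.9%. The part of this library in each fold change is given by the values without it above.

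Among protein-coding genes, 7 pairs of collagens follow each other on a chromosome. In 5 of these pairs both fitted changes had the same sign and in 2 the opposite sign. This count was not compared with other neighbouring genes. COL3A1 and COL5A2 on chromosome 2 and COL6A5 and COL6A6 on chromosome 3 each had both fitted changes above 0. Of these, COL3A1 (0.20 ± 0.81) and COL6A6 (1.74 ± 0.75) were not called. COL6A1 and COL6A2 on chromosome 21, and COL4A1 and COL4A2 on chromosome 13, were the pairs of opposite sign, where COL6A1 and COL4A2 were not called. COL19A1 and COL9A1 follow each other on chromosome 6, where COL19A1 was called and COL9A1 was not.

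Promoter windows of RefSeq, from 250 bases before to 50 bases after a gene start, were found for 32 of the 44 collagens, in 44 windows. CCAAT was found in 31.8% of these windows and in 34.6% of all 35116 windows, and GGGCGG in 54.5% and 45.0%. TATAAA was found in 18.2% of collagen windows and 11.5% of all windows, and GGAATG in 6.82% and 14.0%, searched on both strands. GGAATG lay in the windows of COL10A1, COL11A2 and COL12A1.

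Some enzymes that modify collagen chains rose in the knockout. Of 58 listed genes of collagen modification, export, cleavage, cross-linking, binding and breakdown, 56 were tested, and 10 were called higher and 3 lower, against 7.96% and 8.67% of all tested genes. Without control replicate 3, 27 were called higher and 12 lower, where 32.4% and 33.2% of all genes were. Of the modifying enzymes, P3H2, PLOD3 and COLGALT1 were then called lower (log2 fold changes -0.99 ± 0.08, -0.90 ± 0.07 and -0.55 ± 0.07), and none of these was called with all libraries. The prolyl hydroxylation list, whose enzymes add the hydroxyl groups that keep the helix stable at body temperature, held 5 of the 13 among its 10 tested genes, all higher. P4HA1, a catalytic subunit of prolyl 4-hydroxylase, had 8274, 8237 and 7495 counts in the control libraries and 14910, 13102 and 13979 in the knockouts. It rose by a log2 fold change of 0.96 ± 0.10 (adjusted p = 0.00552) and was called in all 12 alternatives. P4HA2 and P4HA3, the other catalytic subunits, rose by 0.88 ± 0.10 and 1.5 ± 0.19, and P4HB, the shared subunit, by 0.47 ± 0.09 (adjusted p = 0.0066, 0.00764 and 0.0208). P3H3, of the prolyl 3-hydroxylase family, rose by 0.80 ± 0.13 (adjusted p = 0.0132).

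Lysyl hydroxylases prepare collagen for cross-links. PLOD2, which hydroxylates the telopeptides, had 8670 and 7845 counts in the other controls, 12452 in control replicate 3, and 22400, 20038 and 21672 in the knockouts, and it rose by 1.30 ± 0.19 (adjusted p = 0.0105). PLOD1 rose by 0.79 ± 0.11 (adjusted p = 0.0101). Among the proteases that trim procollagen, TLL1, a relative of BMP1, had 28 and 26 counts in the other controls, 8 in control replicate 3, and 641, 653 and 688 in the knockouts. Its knockout mean was 35.6-fold the control mean (5.15 ± 0.47, adjusted p = 0.0037), and it was called in all 12 alternatives. TLL1 passed the filter on low counts through the knockouts, while 2 control libraries reached the minimum. ADAMTS3, a procollagen N-proteinase, rose by 0.87 ± 0.16 (adjusted p = 0.0179). ITGA2, the alpha chain of a collagen-binding integrin, rose by 0.92 ± 0.19 (adjusted p = 0.0246).

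In the opposite direction, LOXL4, a lysyl oxidase that forms cross-links, had 323 and 326 counts in the other controls, 724 in control replicate 3, and 113, 126 and 126 in the knockouts (-1.76 ± 0.36, adjusted p = 0.0254). MMP2, a gelatinase, had 1286, 1269 and 1340 counts in the control libraries and 413, 489 and 464 in the knockouts (-1.36 ± 0.13, adjusted p = 0.00463). TIMP2, an inhibitor that also takes part in activating MMP2, fell by 0.96 on the log2 scale (SE 0.23, adjusted p = 0.0403). In all 13 called genes the groups did not overlap, but the calls rest on these same libraries. Of the 56 tested genes of these lists, 17 had every knockout above every control and 7 had every knockout below. Over all tested genes these shares were 21.5% and 20.1%. Of the 9 chaperone and export genes, which include SERPINH1, 0 were called by edgeR, against 7.96% higher and 8.67% lower of all tested genes. In edgeR 0 had an unadjusted p under 0.05, and DESeq2 and limma-voom also called 0. Without control replicate 3, 5 of the 9 were called higher and 2 lower, where 32.4% and 33.2% of all tested genes were. Leaving out 1 library moved the number of calls in these lists from 13 to 39 without control replicate 3, 7 without control replicate 2, and between 2 and 4 without any 1 knockout.

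**Figure D5:**
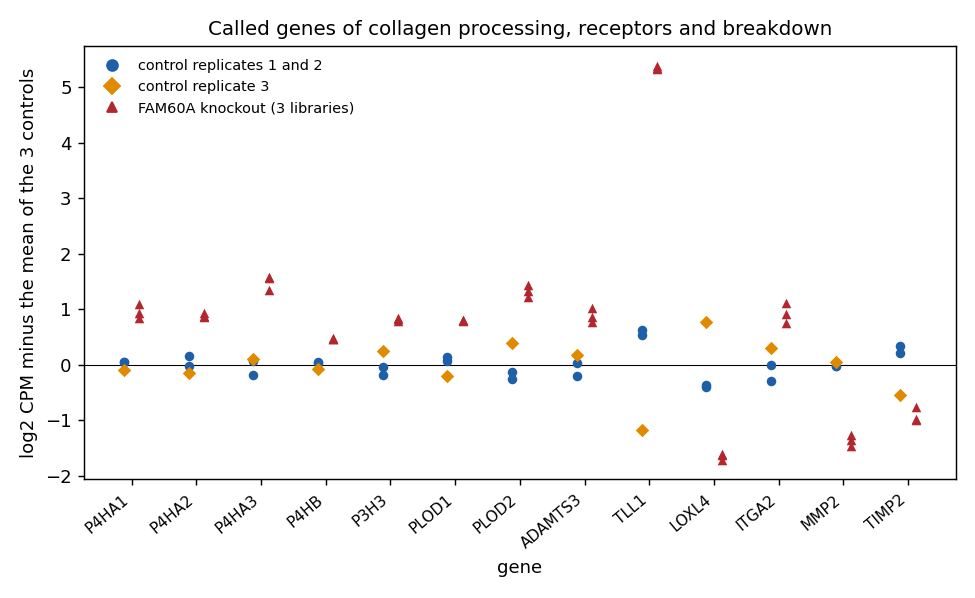
Log2 CPM of the 13 called genes of collagen processing, receptors and breakdown (horizontal axis) in each library, minus the mean of the 3 controls (vertical axis). Circles are control replicates 1 and 2, diamonds control replicate 3 and triangles the knockouts; for each of the 13 genes all triangles lie to 1 side of all controls, furthest for TLL1.

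Markers of cells that make collagen were read in the same libraries. The HEK293 markers PAX2, LHX1, NEFL, NEFM and VIM were present in all libraries, with LHX1 and NEFM called lower. VIM had 67461 and 67908 counts in the other controls, 28924 in control replicate 3, and 22202, 27081 and 22257 in the knockouts. It was not called with all libraries (adjusted p = 0.0745, edgeR) and was called lower without control replicate 3 at -1.38 ± 0.09. PAX2 and NEFL were not called in either fit. Of 8 fibroblast markers, DCN had 0, 1 and 1 counts in the control libraries and 30, 33 and 33 in the knockouts, and LUM had 244 and 223 counts in the other controls, 47 in control replicate 3, and 789, 642 and 727 in the knockouts. Both were called higher (adjusted p = 0.00373 and 0.0463), but DCN passed the filter on low counts only through the knockouts, which sets its direction. THY1 and FAP had at most 3 counts in any library. PDGFRA had 76 and 76 counts in the other controls, 229 in control replicate 3, and 222, 223 and 276 in the knockouts (adjusted p = 0.161), and PDGFRB and POSTN overlapped between the groups. FBLN1 went the other way, with 47.4, 51.8 and 51.2 CPM in control libraries and 39.5, 42.4 and 39.3 in knockout libraries, without overlap (adjusted p = 0.0587). Without control replicate 3, 4 of the 6 tested fibroblast markers were called higher and 1, FBLN1, lower. In that fit 32.4% and 33.2% of all tested genes were. PDGFRA and POSTN were then called higher, at 1.78 ± 0.16 and 1.78 ± 0.37, and PDGFRB was not called. POSTN passed the filter in that fit through the knockouts. The summed CPM of the fibroblast list, most of which is FBLN1, lay between 51.0 and 55.7 in the control libraries and between 51.7 and 53.3 in the knockouts. The summed CPM of the endothelial list lay between 0.921 and 1.57 in the controls and between 0.332 and 0.513 in the knockouts, and that of the blood list between 0.259 and 1.74 and between 0.285 and 0.387. The part of other cell types in the collagen changes was not tested beyond these values.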

How the data were processed

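Poly(A) RNA of 3 control and 3 FAM60A-knockout libraries was analysed. The authors' methods name strand-specific dUTP libraries, DNBSEQ paired reads, Trimmomatic, and Salmon on hg38; the submitters' processing notes name STAR 2.7.10b and featureCounts 2.0.0 on hg38, and the extraction label names hg19. The deposited table held whole-number counts per Ensembl gene, not normalized; the annotation and the strand setting of counting were not given in the sources used here. Of 62754 gene identifiers, 60878 matched a symbol.

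Counts were tested with edgeR 4.0.16 (R 4.3.3): TMM, filterByExpr with a minimum count of 10, the two-sided quasi-likelihood F-test without covariates, and Benjamini-Hochberg adjustment over 20992 genes, with calls at an adjusted p of at most 0.05. The absolute log2 fold change of 1 follows the study's methods. SE is the log2 fold change divided by the square root of F. CPM was TMM-scaled, log2 CPM used a prior count of 2, and level per length used the canonical transcript of GENCODE release v44lift37. Floors of 3 counts cover counting error only. The edgeR fit was tried on simulated counts of 20992 genes, 200 of them changed. It called 22 of the 200 at a log2 change of 1 and all 200 at a log2 change of 3. A gene that was not called may therefore still have changed 2-fold.

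Members and lists were chosen with earlier results of these data known. Counts in every library are given for collagens called with all libraries, or called at a log2 fold change of at least 1 without control replicate 3, for the 8 highest per length, for those with non-overlapping groups at least 2-fold apart, and for partner chains with non-overlapping ratios; called pathway genes may be named. DCN, LUM, THY1, FAP, PDGFRA, PDGFRB, POSTN, FBLN1, P3H2, PLOD3 and COLGALT1 were named after their values were seen. Alternatives were DESeq2 1.42.0, limma-voom (limma 3.58.1), library size without TMM, no filter, at least 10 counts in at least 2 libraries, the replicate number as a block, and leaving out each library. One listed marker gene is not reported here.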

Additional observations from a re-analysis of the deposited data

How the results depend on the processing

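edgeR called 11 collagens with all libraries; the number was 13 by DESeq2 (which gave no p for 3 collagens), 9 by limma-voom, 11 by library size without TMM, 9 without a filter and 10 with at least 10 counts in 2 libraries. Without 1 library it ranged from 0 to 36, at a log2 fold change of at least 1 from 0 to 25, and over the pathway lists from 2 to 39. The number of all genes called ranged from 167 to 14221 and was 5581 by DESeq2. The lowest collagen median was -0.198, without control replicate 2, and the highest was 0.585, without control replicate 3. Fitted changes of COL9A3, COL17A1, COL23A1 and COL26A1 turned positive without control replicate 3 and ranged, over fits without 1 library, from -0.34 to 0.73, -0.9 to 3.51, -1.06 to 0.76 and -0.65 to 1.93. Library size without TMM moved the median of all genes to -0.117. Equal replicate numbers did not pair the libraries (correlations of deviations 0.0101, 0.0306 and -0.0362). With the number as a replicate block, edgeR called 0 collagens, also 0 at a log2 fold change of at least 1, with 21 at an unadjusted p under 0.05, 4 pathway genes and 407 of all genes. The cause of these shifts was not tested. For genes with at most 3 counts in every library, such as COL1A2, a difference was not detectable at this depth.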
